A study of Caenorhabditis elegans with 2 samples.

Results

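The large ribosomal subunit protein genes of Caenorhabditis elegans were taken as all protein-coding genes of the WBcel235 annotation whose symbol starts with rpl- or rla-, which gave 50 of 19973 protein-coding genes on 6 chromosomes. For each gene, the highest AHA-1 ChIP-seq peak was taken with a summit in a promoter window that reached 1000 bp upstream and 500 bp downstream of each annotated start. Chromatin immunoprecipitation followed by sequencing (ChIP-seq) recovers DNA fragments bound by a protein. There was 1 group of 2 biological replicates, made of whole L4 larvae, the last larval stage, with males and females pooled. The animals were of strain OP124, genotype unc-119(ed3) III; wgIs124, in which the integrated transgene wgIs124 carries aha-1 tagged with eGFP, a green fluorescent protein. The labels give eGFP-aha-1 as the target and aha-1 as the antibody, and no source used here names the promoter that drives the transgene. No untagged strain, mutant or other stage was compared, and the control was not analysed here.

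AHA-1 is a transcription factor of the basic helix-loop-helix and PAS family and the worm counterpart of mammalian ARNT. It binds DNA as a dimer with partners such as HIF-1 and AHR-1, and dimers of this family are known to bind a short core written ACGTG or GCGTG. The large ribosomal subunit joins amino acids into protein: its RNA forms the peptidyl transferase centre, and its proteins fold and brace that RNA, line the tunnel through which the new chain leaves, and form the stalks that receive translation factors. Genes for ribosomal proteins are transcribed at high levels in growing tissue. Whole larvae were used, so a site bound in many cells and a site bound strongly in few cells cannot be told apart. A peak list holds no expression level, so the labelled stage was not checked against marker genes.

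The list called on both replicates pooled held 30000 peaks, named candidates here because background is included in it. The authors also applied the irreproducible discovery rate (IDR), a measure of how well peak ranks match between replicates, and the IDR list they deposited held the 530 strongest candidates. Each peak carries a signal, the peak caller's value of ChIP against control. Peaks were ranked by signal within each list, with rank 1 the strongest, since signal values from lists made separately are on scales of their own. The lists give no read counts, so the depth of each replicate is unknown.

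The DNA under 8 of the 12 best-ranked peaks is shown first, so that sites with and without the core can be compared. That of rpl-12 overlaps an exon and is not shown, nor are those of rpl-4, rpl-24.2 and rpl-41.2. Each line gives 30 bp on each side of the summit of the pooled peak in assembly ce11, read 5′ to 3′ on the plus strand from the RefSeq WBcel235 genome, with the core (ACGTG or GCGTG, or the reverse complement) in capitals. The first 4 lines are the best-ranked genes, each with 1 core in the bases shown. The lines for rpl-6 and rpl-43 show the other form of the core, and those for rpl-11.2 and rpl-5 hold none.
rpl-3, chrIII:3867560-3867620: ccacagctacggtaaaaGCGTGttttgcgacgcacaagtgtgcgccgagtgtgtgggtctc
rpl-15, chrIV:654900-654960: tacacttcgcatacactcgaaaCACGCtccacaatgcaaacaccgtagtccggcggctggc
rpl-35, chrIII:7854668-7854728: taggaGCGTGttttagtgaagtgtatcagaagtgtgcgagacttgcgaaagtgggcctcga
rpl-20, chrIV:4750022-4750082: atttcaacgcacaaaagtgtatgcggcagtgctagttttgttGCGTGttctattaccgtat
rpl-6, chrIII:7208063-7208123: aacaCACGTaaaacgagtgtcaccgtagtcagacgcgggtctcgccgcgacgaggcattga
rpl-43, chrII:14154517-14154577: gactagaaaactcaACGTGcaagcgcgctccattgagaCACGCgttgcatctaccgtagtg
rpl-11.2, chrX:2242970-2243030: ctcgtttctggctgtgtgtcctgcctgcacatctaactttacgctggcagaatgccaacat
rpl-5, chrII:8569522-8569582: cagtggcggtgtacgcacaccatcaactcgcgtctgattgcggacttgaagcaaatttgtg

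Of the 50 genes, 15 had an IDR summit in the promoter window, or 30% (exact Clopper-Pearson 95% interval 17.9 to 44.6), while 2.09% of all protein-coding genes had one. The interval treats the genes as independent draws, although they are the whole family and share the same libraries. It covers the counting of genes only and is no test against the background. A candidate summit was found at 47 genes, or 94%, beside 46.8% of all protein-coding genes. Among genes with a candidate summit, 31.9% of the large subunit genes had an IDR summit, where the background was 4.47%. The median rank of the highest candidate was 1161 at these 47 genes and 11091.5 at all protein-coding genes with a candidate. In replicate 1 alone it was 1916 at 43 genes, beside 11724 at all genes, and in replicate 2 alone 1336 at 41 genes, beside 11479.5. The genes spread over nearly the whole range of ranks: 6 ranked 1 to 100, 9 ranked 101 to 530, 6 ranked 531 to 1000 and 10 ranked 1001 to 5000. A further 4 ranked 5001 to 10000 and 12 ranked beyond 10000. No peak was counted for more than 1 of the 47 genes, although 29 of these peaks lay also in the window of another protein-coding gene.

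**Figure D1:**
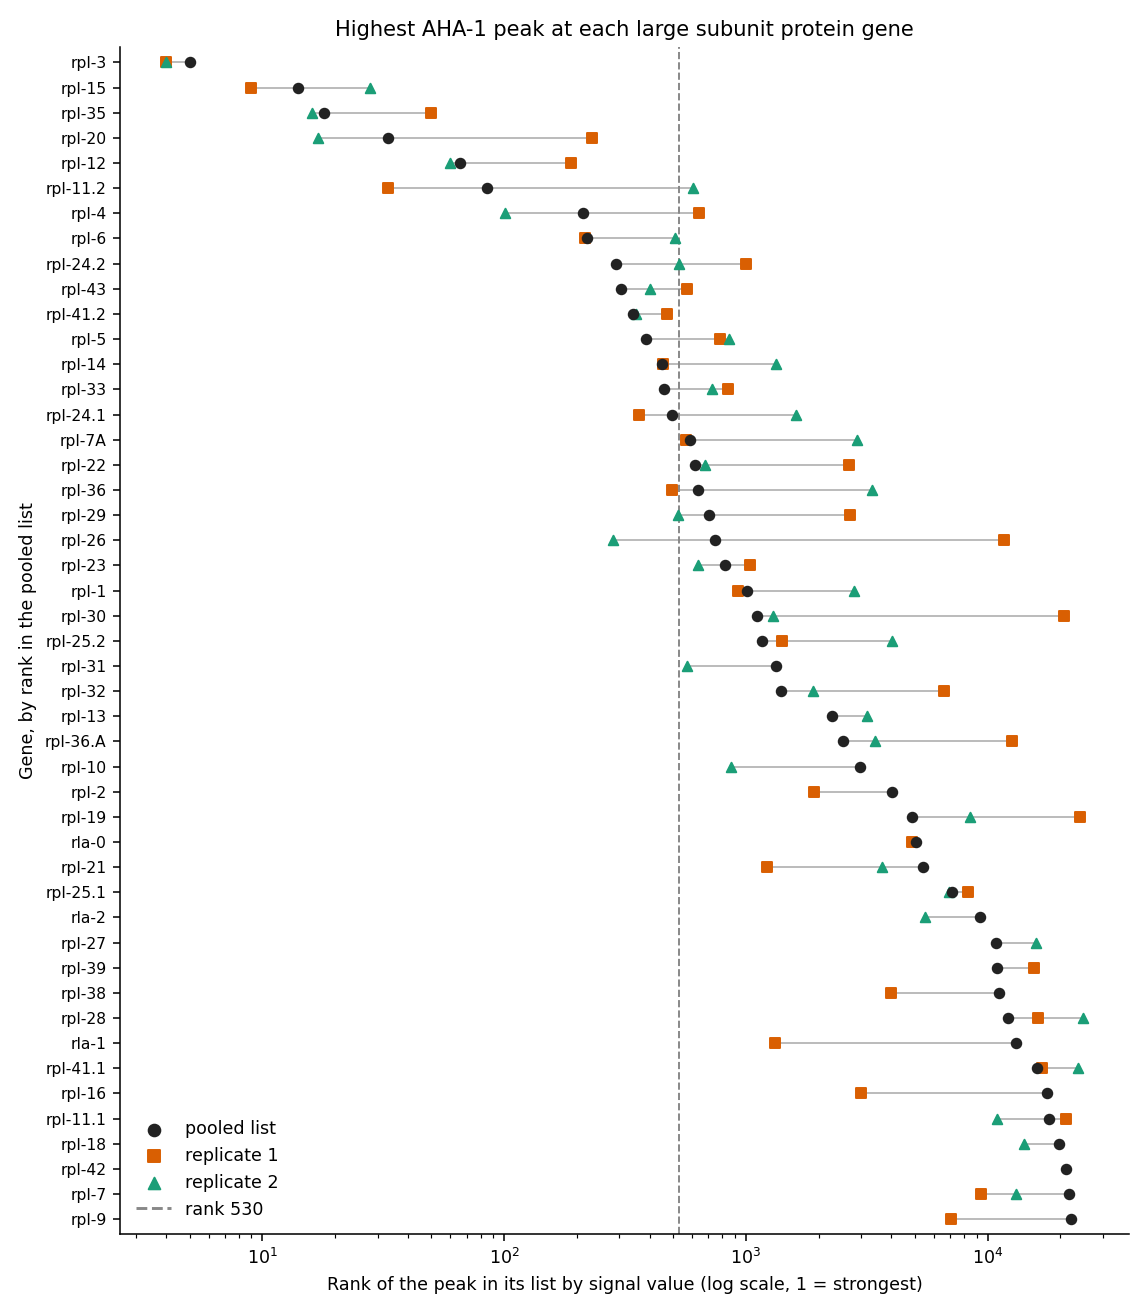
Rank of the highest peak at each of the 47 large subunit genes with a candidate, on a log axis where 1 is the strongest peak of the list. Circles are the pooled list, squares replicate 1 and triangles replicate 2, and the dashed line marks rank 530, the depth of the IDR list. The genes run without a break from rpl-3 at rank 5 to rpl-9 at rank 22193, and the replicate symbols lie furthest apart at rpl-26.

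The strongest peak of the family was at rpl-3, which encodes the protein that reaches towards the peptidyl transferase centre. Its pooled signal was 161 at rank 5, and it ranked 4 in replicate 1 with a signal of 84.8 and 4 in replicate 2 with 76.6. It was the only one of the 15 genes with the same rank in both replicates. The summit lay 264 bp upstream of the gene. The other proteins of that region had much weaker peaks: rpl-10 ranked 2977, with a signal of 12.8, and rpl-2 ranked 4016, with 11.5. The peak of rpl-10 overlapped a peak of replicate 2 (rank 864) and none of replicate 1, and that of rpl-2 overlapped a peak of replicate 1 (rank 1916) and none of replicate 2.

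The next strongest peaks were at rpl-15, rpl-35 and rpl-20. At rpl-15 the pooled signal was 108 at rank 14, and the gene ranked 9 in replicate 1, where the signal was 65.8, and 28 in replicate 2, where it was 46.5. At rpl-35, whose protein sits in yeast and mammals at the mouth of the peptide exit tunnel, the pooled signal was 93.2 at rank 18, with rank 50 and signal 32.2 in replicate 1 and rank 16 and signal 59.7 in replicate 2. Both peaks were among the 100 strongest in each replicate. At rpl-20 the replicates stood apart: the pooled signal was 74.4 at rank 33, but the gene ranked 232 in replicate 1, with a signal of 18.3, and 17 in replicate 2, with 55.6.

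The proteins of the stalk that recruits translation factors are rla-0, which binds the ribosomal RNA, rla-1 and rla-2, the acidic proteins it carries, and rpl-12 at the stalk base. Only rpl-12 had an IDR summit, at chrIV:13240511-13240826 and 18 bp upstream of the start, with a pooled signal of 55.3 at rank 66. It ranked 189 in replicate 1, where the signal was 19.1, and 60 in replicate 2, where it was 34.2. The remaining 3 genes ranked low, with rla-0 at 5033, rla-2 at 9297 and rla-1 at 13142, and each overlapped a peak in a single replicate. The summit at rla-1 lay 410 bp downstream of the start, in a coding exon.

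The proteins that travel with the 5S ribosomal RNA are encoded by rpl-5 and by the gene pair rpl-11.1 and rpl-11.2. The peak of rpl-11.2 had a pooled signal of 50.2 at rank 85, and among the 15 genes the ratio of the replicate ranks was largest here: it ranked 33 in replicate 1, with a signal of 35.8, and 604 in replicate 2, with 14.8. Its partner rpl-11.1 ranked 17895, with a summit 397 bp downstream of the start. At rpl-5 the pooled signal was 28.4 at rank 387, with rank 778 and signal 11.4 in replicate 1 and rank 850 and signal 13.1 in replicate 2. This peak was outside the 530 strongest of either replicate, although it was among the 530 strongest of the pooled list. The protein of the mobile L1 stalk, which guides spent transfer RNA out of the ribosome, is encoded by rpl-1, which ranked 1008 in the pooled list, 924 in replicate 1 and 2805 in replicate 2.

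Genes for proteins along or at the end of the exit tunnel were split. Of the 9 listed, 8 had a candidate and 2 an IDR summit, rpl-35 and rpl-4. At rpl-4, chrI:4647097-4647412, the pooled signal was 35.1 at rank 212, and the gene ranked 639 in replicate 1 with a signal of 12.3 and 101 in replicate 2 with 26.9. The next in order were rpl-26 at rank 742, rpl-25.2 at 1161 and rpl-31 at 1327. The peak of rpl-26 was strong in 1 library only, with rank 283 in replicate 2 and rank 11729 in replicate 1. That of rpl-31 overlapped a peak of replicate 2 (rank 573) and none of replicate 1. Further down were rpl-19 at 4849, rpl-25.1 at 7151 and rpl-39 at 10951, and rpl-17 had no candidate.

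Of the genes that had no role assigned here, 8 of 29 had an IDR summit. Among them, rpl-6 ranked 220 in the pooled list, 216 in replicate 1 and 509 in replicate 2. The peak of rpl-24.2, chrI:9669115-9669430, ranked 289, with 1001 in replicate 1 and 528 in replicate 2. That of rpl-43 ranked 305, with 570 and 403, and that of rpl-41.2, chrI:4789873-4790188, ranked 341, with 473 and 350. Of these 4 genes, rpl-6 and rpl-41.2 stood among the 530 strongest in each replicate.

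The IDR list divided a continuous series of values. The last 3 genes inside it were rpl-14 with a pooled signal of 27.0 at rank 449, rpl-33 with 26.8 at rank 457 and rpl-24.1, whose protein takes part in a bridge between the subunits, with 25.99 at rank 495. The first 3 outside were rpl-7A with 23.9 at rank 588, rpl-22 with 23.4 at rank 618 and rpl-36 with 23.2 at rank 636. The signal of the weakest IDR peak, at any gene, was 25.25. In the replicates these genes were mixed: rpl-36, outside, ranked 494 in replicate 1 and 3328 in replicate 2, while rpl-33, inside, ranked 843 and 722. Over all lower candidates of the family, 32 genes, the lowest signal was 5.85, the highest 23.9 and the median 10.8, and the median of the whole pooled list was 7.08.

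No candidate summit lay in the window of rpl-17, rpl-34 or rpl-37. In the replicates' own lists rpl-17 had a summit in the window in replicate 1 at rank 16522, rpl-34 in replicate 2 at rank 19285 and rpl-37 in replicate 2 at rank 17641. None of these was found in both. The peak of rpl-42, at rank 21139, overlapped no peak of either replicate.

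Several members come as pairs with the same number, and the partners mostly stood far apart. Besides rpl-11.2 and rpl-11.1, the pair rpl-41.2 and rpl-41.1 ranked 341 and 16000, although the genes follow each other on the same strand with 700 bp between them. The pair rpl-25.2 and rpl-25.1 ranked 1161 and 7151, rpl-36 and rpl-36.A ranked 636 and 2514, and rpl-7A and rpl-7 ranked 588 and 21802. Only rpl-24.2 and rpl-24.1, at 289 and 495, were both inside the IDR list. A shared number does not make the partners copies: rpl-7A and rpl-7, like rpl-36.A and rpl-36, are named for different mammalian proteins. Whether the partners of the other pairs are copies, or act in the same way, was not examined here. All were included by symbol alone.

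The replicates are the only separate samples, and the pooled list was made from them, so a pooled rank is no support beyond theirs. A peak of replicate 1 overlapped the pooled peak at 40 of the 47 genes, a peak of replicate 2 at 39, and both at 33. Over all protein-coding genes with a candidate, both overlapped at 3181 of 9352. The counts for each replicate singly have no such background here. The peak ranked 530 or better in both replicates at 7 genes, or 14.9%, beside 2.02% of all protein-coding genes with a candidate. These were rpl-3, rpl-15, rpl-35, rpl-20, rpl-12, rpl-6 and rpl-41.2. Another 4 reached that rank in replicate 1 only (rpl-11.2, rpl-14, rpl-24.1 and rpl-36) and 5 in replicate 2 only (rpl-4, rpl-24.2, rpl-43, rpl-29 and rpl-26). Of the 15 genes with an IDR summit, 6 ranked better in replicate 1, 8 in replicate 2 and 1 the same, so neither library alone held the stronger peaks of the family. At rank 1000, 14 of the 15 were included in replicate 1 and 13 in replicate 2. The 15 were chosen by a pooled list made from these replicates, and the same counts over all genes were not computed.

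**Figure D2:**
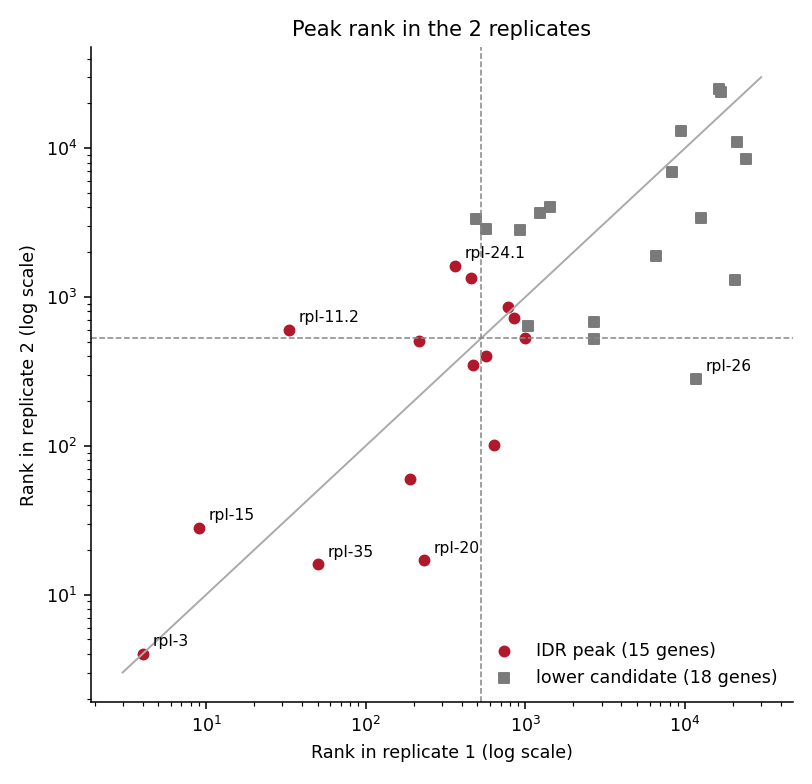
Rank of the peak in replicate 1 against its rank in replicate 2 for the 33 large subunit genes matched in both, on log axes, with 15 genes with an IDR summit as circles and 18 lower candidates as squares. Dashed lines mark rank 530 and the diagonal marks equal ranks. rpl-3 lies on the diagonal, rpl-11.2 and rpl-20 lie far from it on opposite sides, and 7 circles fall in the lower left corner, among the 530 strongest of both lists.

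Spearman's rho of the ranks in replicate 1 and replicate 2 was 0.704 over the 33 genes, 0.546 over the 15 with an IDR summit and 0.407 over 3181 protein-coding genes matched in both. These are descriptions across genes that share the same libraries, with no test. The replicate summits lay close to the pooled summit at the 15 genes, with a median shift of 6 bp in each replicate. The largest shift was 25 bp in replicate 1, at rpl-24.2, and 83 bp in replicate 2, at rpl-14.

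The position of the peaks was not used in choosing the highest peak beyond the window. All 15 IDR summits lay upstream, from 747 to 18 bp before the start, with a median offset of -316 bp and quartiles of -371.5 and -262.5, where negative is upstream. Over all 418 protein-coding genes with an IDR summit, 91.6% of the summits lay upstream. The median there was -271.5 bp with quartiles of -485.5 and -145. Over the 47 genes with a candidate, 44 summits lay upstream, and the median offset was -274 bp with quartiles of -354 and -237.5. For all protein-coding genes with a candidate, 6762 of 9352 summits lay upstream, and the median was -210 bp, with quartiles of -513 and 32.25. The middle of the distribution was thus narrower at the large subunit genes than over all genes, and among their lower candidates the quartiles were -334.5 and -176. It was also narrow at small subunit protein genes, with quartiles of -373 and -221 over 29 genes with a candidate and -394 and -262 over 13 with an IDR summit.

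A stretch from 200 to 450 bp upstream, chosen after the values were seen, held the highest summit of 32 of the 47 genes, or 68.1%, beside 22% of all protein-coding genes with a candidate. It held 12 of the 15 IDR summits (80%), where the share over all genes with an IDR summit was 32.8%, and 20 of the 32 lower candidates (62.5%). Small subunit genes shared this position, with 17 of 29 candidates (58.6%) and 9 of 13 IDR summits (69.2%) in the stretch, and genes for ribosome assembly had 7 of 16 candidates there (43.8%). The 3 IDR summits outside it were at rpl-12, 18 bp upstream, rpl-24.2, 142 bp upstream, and rpl-43, 747 bp upstream. In the list of replicate 2 alone, 29 of 41 genes with a summit in the window had it in this stretch (70.7%, against 21.1% of all genes), and in that of replicate 1, 24 of 43 (55.8%, against 19.3%). Both libraries thus placed more than 50% of the family's summits there. The pooled list on which the stretch was chosen was made from these libraries, so these shares are no separate support for it.

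**Figure D3:**
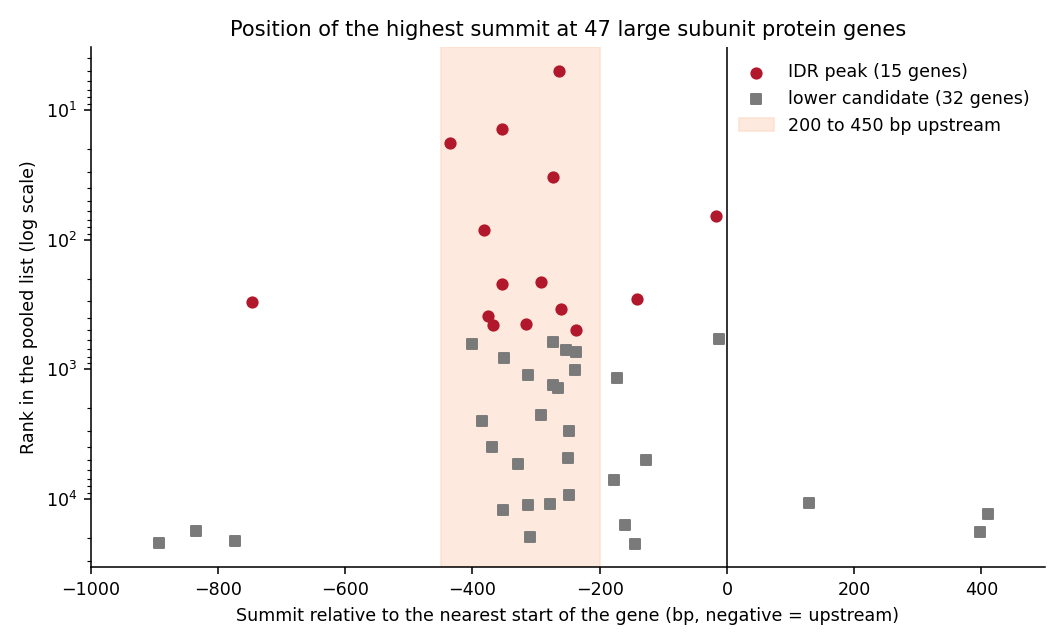
Offset of the highest summit from the nearest start of the gene, in bp with negative values upstream, against its pooled rank on a log axis with the strongest at the top. Circles are the 15 genes with an IDR summit, squares the 32 lower candidates, and the shaded band is 200 to 450 bp upstream, chosen after the values were seen. The band holds 32 of the 47 points, at ranks from 5 to 19666, and 3 squares lie downstream of the start.

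By annotation, 14 of the 15 IDR summits lay between genes, and that of rpl-24.2 lay in an intron of C03D6.1, the gene on the opposite strand. Of the 32 lower candidates, 27 lay between genes, 2 in introns, 1 in a UTR exon and 2 in coding exons. The summits of rpl-19 (intron), rpl-27 and rla-1 (coding exons) lay in the genes themselves. That of rpl-16 lay in an intron of lias-1 and that of rpl-25.1 in a UTR exon of glit-1. None of the 47 summits had an annotated snoRNA, snRNA, tRNA or miRNA gene within 200 bp (0 at each), while 9 had another non-coding RNA gene there. The same shares over all genes were not computed, so these counts describe the family without a background.

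Many of the peaks could not be assigned to 1 gene. At 8 of the 15 genes the peak lay also in the window of another protein-coding gene, and the background among genes with an IDR summit was 50%. The neighbours were K11H12.8 at rpl-15, Y17G9B.5 at rpl-20, lin-54, part of a complex that represses cell cycle genes, at rpl-12, B0041.8 at rpl-4, Y48B6A.1 at rpl-43, the collagen gene col-38 at rpl-5, farl-11 at rpl-33 and rps-10 at rpl-24.1. Of these, rps-10 encodes a protein of the small subunit, so 1 peak at rank 495 stands between genes of both subunits. The start of the large subunit gene was the nearest at 11 of the 15, and the neighbour's was nearer at rpl-20, rpl-4, rpl-43 and rpl-33. The remaining 7 genes, rpl-3, rpl-35, rpl-11.2, rpl-6, rpl-24.2, rpl-41.2 and rpl-14, had an IDR peak in no other protein-coding gene's window. The 15 genes with an IDR summit were spread over the genome, with 5 of 17 on chromosome I, 3 of 9 on II, 3 of 9 on III, 3 of 8 on IV, 0 of 5 on V and 1 of 2 on X. Over all protein-coding genes the share with an IDR summit was 2.68% on I, 1.91% on II, 3.45% on III, 1.65% on IV, 1.18% on V and 2.6% on X.

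The core ACGTG or GCGTG, searched on both strands within 50 bp of the summit, was present at 7 of the 15 IDR peaks, or 46.7%, and at 51.4% of all protein-coding genes with an IDR summit. The share at the large subunit genes was thus near the background. It was GCGTG at rpl-3, rpl-15, rpl-35 and rpl-20, ACGTG at rpl-6 and rpl-14, and both at rpl-43. No core was present at rpl-12, rpl-11.2, rpl-4, rpl-24.2, rpl-41.2, rpl-5, rpl-33 or rpl-24.1, which says only that these letters are not in the window. The 4 best-ranked genes all had one. Where there was a core, the nearest lay a median of 14 bp from the summit, and 16 bp at all genes with an IDR summit. Among the 32 lower candidates the core was present at 7 (21.9%), and at 18.8% of all protein-coding genes with lower candidates only.

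Counted over promoters, the core was close to the background as well. It occurred in the 500 bp upstream of 28 of the 50 genes, or 56%, and of 54.8% of all protein-coding genes. It occurred upstream of 53.3% of the genes with an IDR summit and 57.1% of the others. The palindrome CACGTG, which contains ACGTG on both strands, occurred upstream of 1 gene, rpl-14 (2%), and of 8.61% of all protein-coding genes. TATAAA was present upstream of 54% of the 50 genes and of 54% of all protein-coding genes. Median GC content over 50 bp on each side of the summit was 50.5% at the 15 IDR peaks, 44.1% at the 32 lower candidates and 51.5% at all genes with an IDR summit.

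Other short sequences recurred near the summits. Of the 8192 possible sequences of 7 bases, taken with their reverse complements, 5 were present within 50 bp of the summit at 10 or more of the 47 genes, and 3 of these overlap each other. They were picked for their frequency at these genes, so their shares here are a description with no test. CGAGTGT was present at 12 of the 47 genes (25.5%): at 7 of the 15 IDR peaks (46.7%) and 5 of the 32 lower candidates (15.6%). It was present at 9 of 503 other IDR peaks (1.79%) and 143 of 29424 other candidates (0.486%). The IDR peaks that held it were those of rpl-3, rpl-15, rpl-20, rpl-11.2, rpl-6, rpl-24.2 and rpl-24.1, and it can be read in lower case in the lines for rpl-3, rpl-6 and, as the reverse complement, rpl-15 above.

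GCGAGAC was present at 14 of the 47 genes (29.8%), with 5 of the 15 IDR peaks (33.3%) and 9 of the 32 lower candidates (28.1%). Other IDR peaks held it at 35 of 503 (6.96%) and other candidates at 240 of 29424 (0.816%). Among the IDR peaks it was found at rpl-35, rpl-4, rpl-6, rpl-41.2 and rpl-14. One or the other sequence was present at 23 of the 47 genes, and 3 genes, rpl-6, rpl-21 and rpl-29, had both. With the core included, 12 of the 15 IDR peaks (80%) held at least 1 of these sequences, as did 272 of 503 other IDR peaks (54.1%), most of them through the core, and those of rpl-5, rpl-12 and rpl-33 held none. At peaks of small subunit protein genes that were not used to pick the sequences, CGAGTGT was present at 2 of 26 (7.69%) and GCGAGAC at 4 of 26 (15.4%). These leave out the 3 small subunit peaks shared with rpl-24.1, rpl-36 and rpl-39. Of those, the peak of rpl-24.1 and rps-10 held CGAGTGT, that of rpl-39 and rps-30 held GCGAGAC, and that of rpl-36 and rps-14 held neither.

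**Figure D4:**
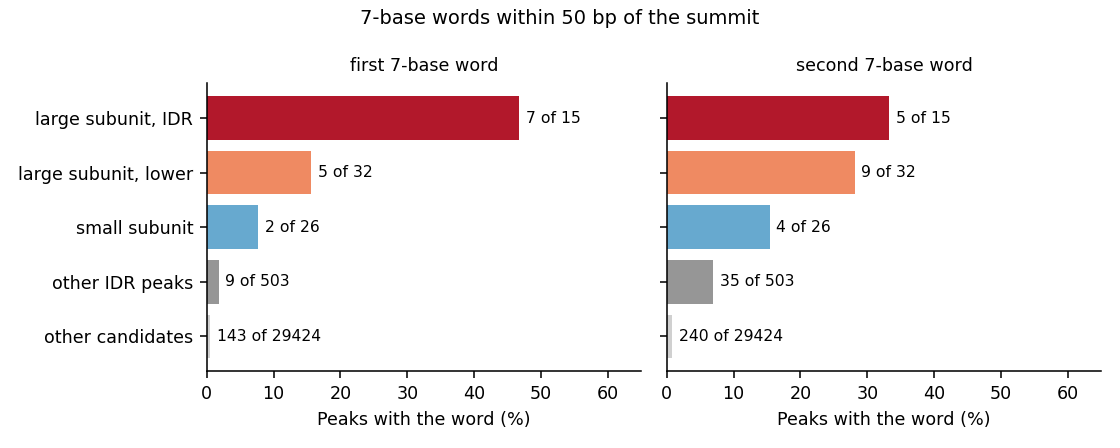
Percent of peaks with a recurrent sequence of 7 bases within 50 bp of the summit, CGAGTGT on the left and GCGAGAC on the right, in 5 classes of peaks with the count beside each bar. Both sequences were picked for their frequency at the large subunit genes, and small subunit peaks shared with those genes are left out of the small subunit class. The shares were 46.7% and 33.3% at the 15 IDR peaks of large subunit genes and 1.79% and 6.96% at other IDR peaks.

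Both sequences were also counted in promoters, whether or not a peak lay there. CGAGTGT occurred in the 500 bp upstream of 12 of the 50 large subunit genes (24%), 5 of 31 small subunit genes (16.1%) and 2.63% of all protein-coding genes. GCGAGAC occurred upstream of 17 of the 50 (34%), 9 of 31 (29%) and 3.94%. Near the summit they were also found where the peak was weak, as at rpl-21, rank 5397, rla-2, rank 9297, and rpl-39, rank 10951.

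Small subunit protein genes were the nearest comparison. Of 31 rps- genes, 13 had an IDR summit (41.9%) and 29 a candidate (93.5%), with a median rank of 666 and a median offset of -284 bp. The difference from the large subunit genes was not tested. At 12 of the 13 small subunit genes the IDR peak lay also in the window of another protein-coding gene. This held at 8 of the 15 large subunit genes and at 50% of all protein-coding genes with an IDR summit. Both subunits contributed 7 genes ranked 530 or better in each replicate, out of 47 large subunit and 29 small subunit genes with a candidate. In the other lists of ribosome genes IDR summits were few. For the ribosome of mitochondria, 1 of 41 mrpl- genes (2.44%) and 1 of 29 mrps- genes (3.45%) had an IDR summit. Of 19 genes for ribosome assembly and ribosomal RNA synthesis, 16 had a candidate and 0 an IDR summit, the best being nol-58, a component of the particles that modify ribosomal RNA, at rank 706. Of the genes that encode ubiquitin fused to a ribosomal protein, ubl-1 ranked 885 and ubq-2, which carries the large subunit protein L40, ranked 2012.

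**Figure D5:**
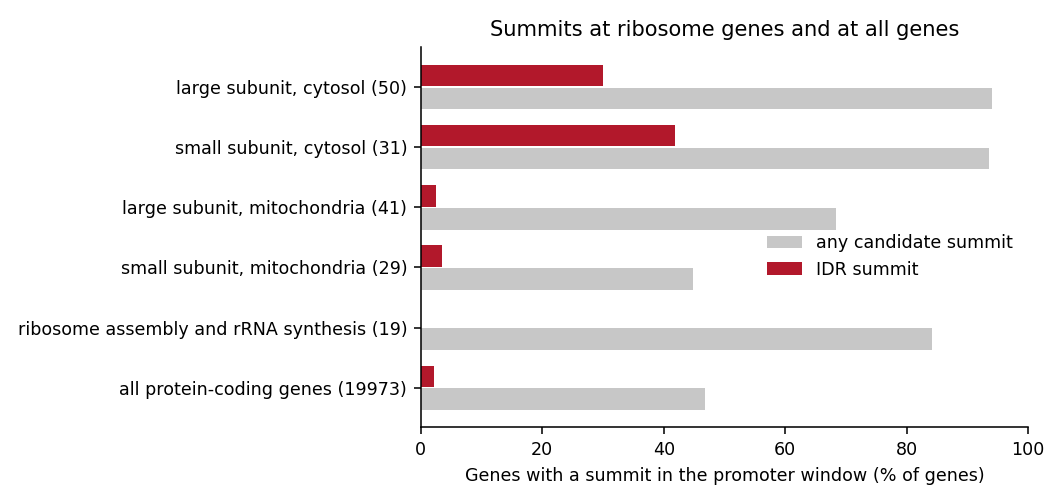
Percent of genes with an IDR summit (dark bars) and with any candidate summit (light bars) in the promoter window, by list, with the number of genes in brackets. IDR summits were present at 30% of large and 41.9% of small subunit genes of the cytosol and at 2.09% of all protein-coding genes, and at 0 of 19 genes for ribosome assembly and rRNA synthesis.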

How the data were processed

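AHA-1 ChIP-seq was measured in 2 biological replicates of 1 group, and the labels give library sizes between 150 and 350 bp. The notes deposited with each sample state that peaks were called on each replicate against a control, and again on both pooled. The aligner, the caller with its settings and the IDR cutoff were not named in any source used here. The signal of each peak, as deposited by the authors, was compared within its own list alone, because no source states how it was scaled.

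Peaks of assembly ce11 were placed on WBcel235, which is the same assembly, with Ensembl gene models. The ce10 lists were not used here. Python 3.11.15, NumPy 2.4.6 and SciPy 1.17.1 served for all steps. Coordinates count from 1. A replicate peak matched a pooled peak when they overlapped by at least 1 bp, and the best-ranked was taken. A core lay wholly within 50 bp of the summit. Without a second condition no difference could be tested, and no p-value is given. Read depth is unknown, so the interval, which treats the genes as independent draws, covers counting error only. The label of biological replicate is the submitters'. Window, offset and sequence searches were checked on simulated data.

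Genes named are the 12 best-ranked members, members with a listed role, same-number pairs, the 3 with the largest rank gap among those with an IDR summit, those next to the end of the IDR list, those with no candidate, and genes sharing a peak with the 12. Others named were chosen after their values were seen. The members and all lists were chosen with earlier results of these data known. Symbols nol-1 and rrbs-1 matched no gene and were left out. The symbol rpl-41, listed for the subunit bridges, matched no gene either, so rpl-41.1 and rpl-41.2 were counted among genes with no role. Alternatives were other promoter windows, rank limits, matching rules and motif windows, the nearest start only, and each replicate alone.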

Additional observations from a re-analysis of the deposited data

How the results depend on the processing

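No paired analysis was possible because there was 1 group and no test. The count of 15 genes with an IDR summit was 14 to 15 with other windows, 11 with the nearest start only, 22 with the IDR list extended to as many candidates again, and 11 to 12 with 1 replicate alone (22% to 24% of the family, against 2% to 2.08% of all genes). With the stronger 50% of the IDR peaks it was 8, as was the number of distinct peaks. Counting only peaks in no other gene's window, chosen after seeing the data, gave 7. Genes among the strongest of both replicates numbered 7 at rank 530 and 12 at rank 1000. Except with 1 replicate alone, shares over all genes were not computed for these alternatives. Their counts thus describe the family without a background. Spearman's rho was 0.687 with the replicate's own highest peak in the window and 0.715 with summits within 100 bp. With 1 replicate alone, the median rank was 1336 to 1916, the median offset -286 to -274 bp, and the stretch of 200 to 450 bp upstream held 24 to 29 genes. Alternatives for that stretch and the sequences of 7 bases were also chosen after seeing the data. CGAGTGT was at 7 genes with 25 bp on each side and at 9 with either replicate alone, and GCGAGAC at 9 to 11 with 1 replicate alone. Of the 15 IDR peaks, a narrower window, 500 bp upstream to 250 bp downstream, lost only that of rpl-43. A weak candidate at rank 12397 took its place. With that window 42 genes had a candidate, beside 47 in the main analysis, and the median rank was 1061. The median offset stayed upstream in every alternative computed for it, from -286 to -273.5 bp, and Spearman's rho stayed positive. Counts and ranks cannot change sign, so a reversal was not possible for them. The cause of the shifts between settings was not tested. Depth is unknown, so weak candidates and background cannot be told apart.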
